A study of Mus musculus with 14 samples.

Results

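The integrated stress response and the targets of its transcription factor ATF4 were followed as a module of 37 genes in brown adipose tissue (BAT). The members are the rows of the deposited table that carry 1 of 37 listed symbols, and all 37 symbols matched Ensembl mouse gene identifiers among its 55471 genes. Ddit3 matched 2 identifiers, of which the one with counts was used. All 37 members passed the filter on low counts, which left 15949 genes for testing. The module comprised 4 kinases of the translation factor eIF2 alpha, 5 transcription factors, 7 feedback and effector genes, 6 enzymes of amino acid synthesis, 3 one-carbon enzymes, 5 amino acid transporter subunits and 7 tRNA synthetases.

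In the integrated stress response, 4 kinases that sense different stresses (haem shortage and mitochondrial stress, double-stranded RNA, unfolded protein in the endoplasmic reticulum, and amino acid shortage) phosphorylate eIF2 alpha, which lowers general protein synthesis while raising translation of ATF4. ATF4 then activates genes for amino acid synthesis and uptake, for charging tRNAs, and for the feedback that removes the phosphate. In brown fat, which burns fuel in mitochondria to make heat, ATF4 is known as a regulator of the stress hormone FGF21 and of amino acid use. The kinases and ATF4 are controlled largely by phosphorylation and translation, neither of which RNA counts measure.

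RNA was sequenced from BAT of male mice, 10 weeks old, that were either wild type (WT) or lacked CLSTN3B (calsyntenin-3b, in the series title a factor that limits lipid droplet growth) in adipocytes only (AdC3KO). The promoter that drove the deletion, and whether the WT mice carried any of its alleles, are not stated in the labels. All 4 groups had been held at thermoneutrality (30 °C) for 2 weeks. One set of WT and AdC3KO mice was sampled at that point (3 libraries per genotype), and the other set after a further 6 h at 4 °C (4 libraries per genotype). The labels do not state that each library came from a separate animal, so every p-value measures the spread between libraries.

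Libraries held 19932180 to 29026445 gene counts. At the targeted locus Clstn3, WT libraries had 182 to 228 CPM (counts-per-million values, scaled by the TMM method) at 30 °C and 970.0 to 1195 CPM at 4 °C, against 14.8 to 17.3 and 53.8 to 77.9 CPM in AdC3KO, so each library matched its genotype label. All 8 brown adipocyte markers, among them Ucp1 and Cidea, had counts in every library. Transcripts of skeletal muscle, a tissue next to the depot, were present in 5 libraries (WT library 3 and AdC3KO libraries 1 and 2 at 30 °C, WT library 2 and AdC3KO library 3 at 4 °C), in which the mean log2 level of 10 muscle genes was 1.35 to 4.74, against -1.57 to -1.23 in the others. In addition, 2 libraries at 4 °C were high in 10 interferon response genes, which summed to 1264 CPM in WT library 4 and 406 CPM in AdC3KO library 1, against 84.9 to 218 CPM in the other 12 libraries.

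ATF4 binds DNA as a dimer with C/EBP proteins at the C/EBP-ATF response element, and promoter stretches that hold this element are shown here because ATF4 targets define the module. RefSeq windows (build GRCm38.p6) from 250 bases before to 50 after the annotated start existed for 32 of the 37 members. For 30 of their 36 windows, the first 20 transcribed bases were in an annotated transcript of the gene. The start used can lie inside the locus. For Atf3 the window ran from 191183284 to 191183583, in a locus that reaches 191218039. Searched on both strands, the element TGATGNAA lay in the window of 10 of these 32 members (31.2%), against 4.51% of the 27025 genes with a window. The sequences run 5′ to 3′ along the gene, the element is in capitals, and TTGCATCA or TTTCATCA is the element read on the opposite strand.

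Slc7a11, chr3:50443644-50443703, minus strand: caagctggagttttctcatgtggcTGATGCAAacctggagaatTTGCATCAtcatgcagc
Chac1, chr2:119351022-119351081, plus strand: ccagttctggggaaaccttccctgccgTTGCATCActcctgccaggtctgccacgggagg
Atf3, chr1:191183411-191183470, minus strand: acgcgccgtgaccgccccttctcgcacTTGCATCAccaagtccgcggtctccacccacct
Asns, chr6:7693225-7693284, minus strand: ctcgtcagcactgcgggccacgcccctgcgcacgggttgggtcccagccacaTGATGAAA
Gars, chr6:55037941-55038000, plus strand: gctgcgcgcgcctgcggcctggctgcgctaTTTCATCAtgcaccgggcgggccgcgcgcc
Tars, chr15:11399659-11399718, minus strand: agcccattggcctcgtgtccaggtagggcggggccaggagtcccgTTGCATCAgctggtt
Pycr1, chr11:120643819-120643878, minus strand: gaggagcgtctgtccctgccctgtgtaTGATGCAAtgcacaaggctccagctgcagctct
Nupr1, chr7:126625562-126625591, minus strand: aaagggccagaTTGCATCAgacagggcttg

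Stretches are shown for 8 of the 10 members with the element. The matches lay from 193 bases before the start (Chac1) to 22 after it (Trib3). Of the 10 members with the element, 8 were called higher at 4 °C in both genotypes and 2, Nupr1 and Pycr1, were not. Members with a window that were called higher in both genotypes held it in 8 of 23 cases (34.8%), and the other members in 2 of 9 (22.2%), so the element was present in both classes. The stretch of Nupr1 lies within exons of other annotated transcripts of the gene, and those of Asns and Tars do in part. A match describes letters in this window and is not a measured binding site.

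The cAMP response element TGACGTCA, palindromic and bound by CREB downstream of the cold signal from sympathetic nerves as well as by ATF factors, occurred in the window of 1 of the 32 members, Ppp1r15a (3.12%), against 2.03% of all genes with a window. Its sequence is given because Ppp1r15a was among the strongly cold-induced members.

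Ppp1r15a, chr7:45526269-45526328, minus strand: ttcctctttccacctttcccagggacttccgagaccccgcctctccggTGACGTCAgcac

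The general promoter motif CCAAT was found in 19 of the 32 members (59.4%) and in 41.1% of all genes with a window.

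**Figure D1:**
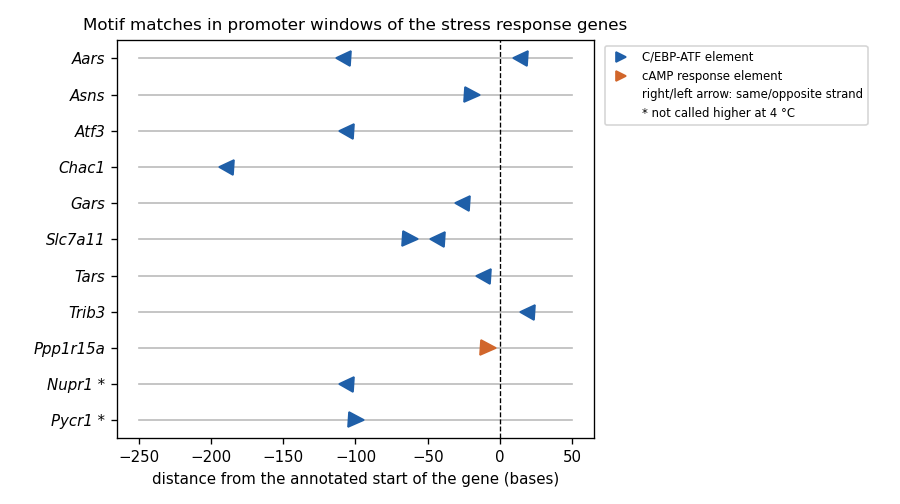
Positions of the C/EBP-ATF element and the cAMP response element in the promoter windows of the 11 members that hold either. The horizontal axis is the distance in bases from the annotated start, arrowheads give the strand, and an asterisk marks a member not called higher at 4 °C in both genotypes; 8 of the 10 members with the C/EBP-ATF element carry no asterisk.

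The first comparison asked what 6 h at 4 °C did to the module in each genotype. In WT, 28 of the 37 members were called higher and 2, Nupr1 and Psph, lower (edgeR quasi-likelihood test, Benjamini-Hochberg adjusted p under 0.05 over all tested genes), and 7 were not called (Eif2ak2, Eif2ak3, Eif2ak4, Ddit3, Phgdh, Pycr1 and Shmt2). The background was broad, since 30.6% of all tested genes were called higher and 30.8% lower in WT. In AdC3KO, 29 members were called higher (the 28 of WT and Eif2ak3), 3 lower (Nupr1, Psph and Phgdh) and 5 not called, against 31% and 32.1% of all tested genes. A rise of at least 2-fold was called for 26 members in each genotype, the same 26 in both, against 14% of tested genes in WT and 14.1% in AdC3KO. Slc7a11, among these 26, passed the filter on low counts only through its cold libraries. The median log2 fold change of the members was 1.69 in WT and 1.79 in AdC3KO, and that of all tested genes -0.03 and -0.06. Upper-quartile scaling in place of TMM shifted these all-gene medians to -0.27 and -0.29 and took the share of called genes that were higher from 49.9% to 36.2% in WT and from 49.1% to 36.4% in AdC3KO. Under that scaling 28 members in WT and 27 in AdC3KO were called higher. These are bulk tissue levels, in which fewer cells of a type and less RNA per cell cannot be told apart.

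The groups at 4 °C and 30 °C did not overlap for 28 members in WT and 29 in AdC3KO, with every cold library above every library at 30 °C, against 29.9% and 30.9% of all tested genes. Slc3a2 and Atf4 ranked the sixth and the seventh among all tested genes by p-value in each genotype. Other cell types were read beside this. The 8 macrophage markers summed to 156 to 183 CPM in WT at 30 °C and 255 to 509 CPM at 4 °C, and to 150.0 to 226 and 201 to 352 CPM in AdC3KO, with 4 of the 8 (Cd68, C1qb, Mrc1 and Cd14) called higher in both genotypes. The 6 endothelial markers summed to 562 to 751 CPM in WT at 30 °C and 986 to 1056 CPM at 4 °C, and to 580 to 650.0 and 1058 to 1244 CPM in AdC3KO, with 3 (Pecam1, Cdh5 and Kdr) called higher and 2 (Tek and Emcn) lower in both. None of these 14 markers was at 0 in any library, and the 5 red blood cell markers were at 0 in none either. These 5 summed to 276 to 358 CPM in WT at 30 °C and 326 to 599 CPM at 4 °C, and to 245 to 385 and 496 to 622 CPM in AdC3KO, with 4 (Hbb-bs, Hbb-bt, Hba-a1 and Alas2) called higher in both. The 5 lymphocyte markers summed to 3.59 to 4.79 CPM in WT at 30 °C and 0.530 to 6.28 CPM at 4 °C, and to 3.65 to 4.95 and 0.927 to 3.13 CPM in AdC3KO. Of these, 2 (Cd79a and Cd79b) were called lower in both, and Ms4a1 was at 0 in 3 cold libraries. The 5 fibroblast markers summed to 582 to 968 CPM over all libraries, with Lum called lower in both. The part of these cell types in the cold response of the module was not tested.

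**Figure D2:**
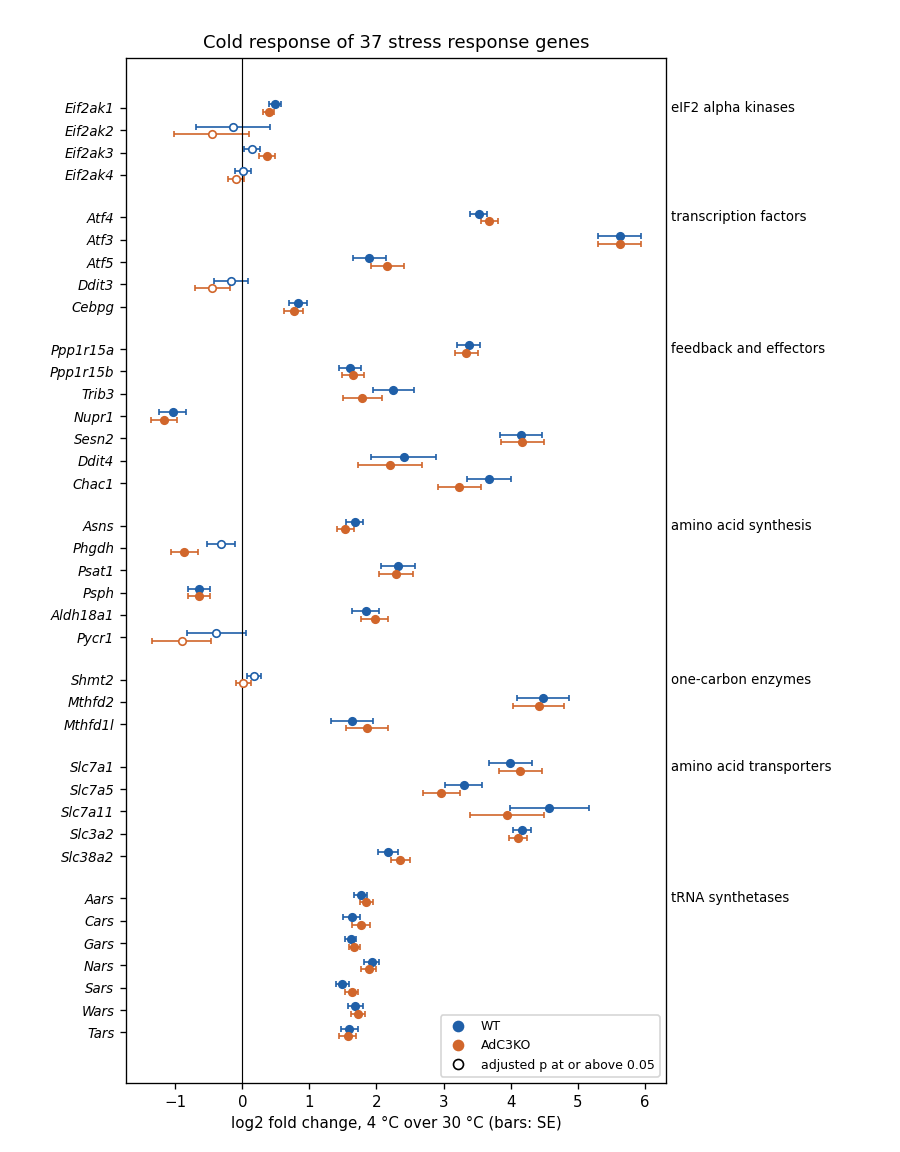
Log2 fold change at 4 °C over 30 °C (horizontal axis) of each of the 37 members, by role, in WT and AdC3KO, with SE bars and open symbols where the adjusted p was 0.05 or above. All amino acid transporters and tRNA synthetases lie to the right of 0, from 1.49 to 4.57 in WT, and Nupr1 lies near -1.04 in WT and -1.17 in AdC3KO.

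With all libraries in the fit, none of the 4 kinases that start the response was called with a change of 2-fold. Eif2ak1 encodes HRI, the haem- and mitochondria-linked kinase. Eif2ak1 had 28.9, 28.5 and 28.5 CPM in WT at 30 °C and 30.1, 30.3 and 32.4 CPM in AdC3KO, against 38.9, 39.7, 40.9 and 41.2 CPM and 41.8, 45.4, 38.02 and 37.4 CPM at 4 °C. Every cold library was above every library at 30 °C, and the rise was called, with a log2 fold change of 0.49 in WT (SE 0.08, adjusted p = 9.33e-05) and 0.40 in AdC3KO (SE 0.08, adjusted p = 0.000598). Eif2ak1 shares 11.6% of its exon bases with Aimp2 and Ankrd61 on the opposite strand. Aimp2 had 1518 counts in all libraries together, against 11964 for Eif2ak1. Eif2ak3, which encodes the endoplasmic reticulum kinase PERK, had 17.4 to 20.4 CPM in the 6 libraries at 30 °C, 18.8 to 22.8 in WT and 19.99 to 27.6 in AdC3KO at 4 °C. Its log2 fold change of 0.37 in AdC3KO was called (SE 0.12, adjusted p = 0.0124), and that in WT was not (0.14, SE 0.12, adjusted p = 0.314), and the difference between the genotypes was not called (0.23, SE 0.17). The Eif2ak3 call in AdC3KO was lost with upper-quartile scaling (0.14, adjusted p = 0.33), with no filter (0.28, adjusted p = 0.101) and with a filter at 5 CPM (0.27, adjusted p = 0.0521). The Eif2ak1 call in AdC3KO was lost with upper-quartile scaling (0.16, adjusted p = 0.105). Without the 5 libraries with muscle transcripts its log2 fold change was 0.36 (adjusted p = 0.0867), from a fit with 1 AdC3KO library left at 30 °C, which is assumed to vary like the other groups. Eif2ak4, the amino acid sensor GCN2, had 14.03 to 19.4 CPM over all 14 libraries and was not called.

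Eif2ak2 encodes PKR, which binds double-stranded RNA and is itself induced by interferon. Eif2ak2 had 27.7, 28.8 and 27.3 CPM in WT at 30 °C and 25.9, 26.1 and 24.5 CPM in AdC3KO, against 14.03, 15.1, 11.7 and 60.3 CPM and 31.4, 19.8, 12.7 and 10.2 CPM at 4 °C. WT library 4 at 4 °C stood far above the other 13, and AdC3KO library 1 was the next highest; these are the libraries high in interferon response genes. With all libraries Eif2ak2 was not called in either genotype (log2 fold change -0.14, SE 0.56, adjusted p = 0.849 in WT and -0.46, SE 0.56, adjusted p = 0.497 in AdC3KO). Without those 2 libraries it was called lower in both, by -1.03 on the log2 scale in WT (adjusted p = 0.000114) and -0.82 in AdC3KO (adjusted p = 0.000764). Leaving out only WT library 4 gave -1.03 in WT (adjusted p = 0.0122). The libraries left out were also the highest in Eif2ak2, so leaving them out by itself lowers its cold level. These calls are therefore not a separate test of a fall in Eif2ak2.

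**Figure D3:**
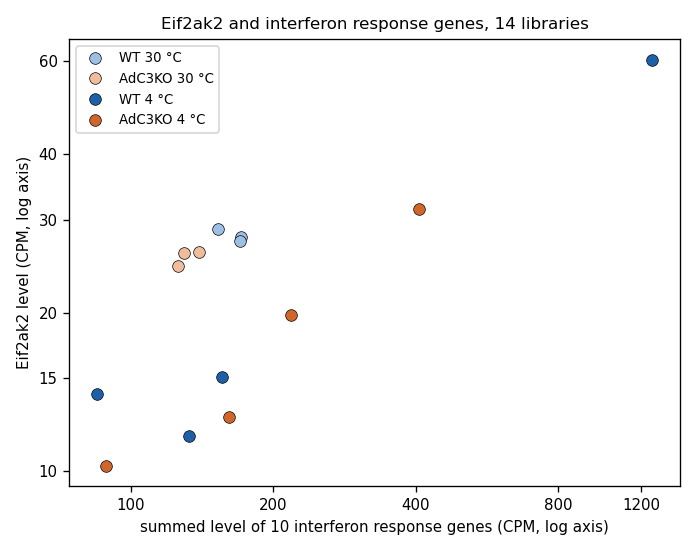
Eif2ak2 level (CPM, vertical log axis) against the summed level of 10 interferon response genes (CPM, horizontal log axis) in the 14 libraries, coloured by group. WT library 4 at 4 °C sits alone at the upper right with 60.3 and 1264 CPM, and the 6 libraries at 30 °C sit between 24.5 and 28.8 CPM of Eif2ak2.

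Among the transcription factors, 4 of 5 rose in both genotypes. Atf4 itself (plus strand of chromosome 15, 80255184 to 80257541, build GRCm38) is the effector of the pathway. Atf4 had 48.99, 54.3 and 50.7 CPM in WT at 30 °C and 43.7, 46.2 and 55.8 CPM in AdC3KO, against 589, 674, 558 and 541 CPM and 680.2, 569, 579.9 and 660.2 CPM at 4 °C. The 8 cold libraries lay together, from 541 to 680.2 CPM, and the 6 libraries at 30 °C between 43.7 and 55.8 CPM. Means were 51.4 ± 2.71 and 591 ± 58.9 CPM in WT and 48.6 ± 6.40 and 622 ± 56.1 CPM in AdC3KO (SD, n = 3 and 4), a ratio of 11.5 and 12.8. The log2 fold change of Atf4 was 3.52 in WT (SE 0.12, adjusted p = 9.93e-12) and 3.68 in AdC3KO (SE 0.12, adjusted p = 5.48e-12). A two-sided exact permutation test of log2 CPM gave p = 0.0571 in each genotype, the smallest that 3 against 4 libraries allow.

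Atf3 (minus strand of chromosome 1, 191170296 to 191218039), an early-response factor that ATF4 activates, had the largest rise of the module. Atf3 had 2.53, 1.92 and 1.44 CPM in WT at 30 °C and 1.014, 2.08 and 2.33 CPM in AdC3KO, against 134, 106, 81.8 and 64.5 CPM and 91.8, 92.4, 86.5 and 83.8 CPM at 4 °C. No library at 30 °C exceeded 2.53 CPM and no cold library was below 64.5 CPM. The log2 fold change of Atf3 was 5.63 in WT (SE 0.32, adjusted p = 7.95e-09) and 5.63 in AdC3KO (SE 0.32, adjusted p = 7.3e-09), a ratio of means of 49.3 in WT and 49.0 in AdC3KO. Atf5, a factor of the mitochondrial stress response, was higher at 30 °C, with 55.9 CPM per kilobase of exon in WT against 0.911 for Atf3. Atf5 had 148, 111 and 74.98 CPM in WT at 30 °C and 71.6, 73.4 and 113 CPM in AdC3KO, against 367, 473, 399.7 and 416 CPM and 428, 293, 332 and 487 CPM at 4 °C. The cold libraries were again all above those at 30 °C, by a log2 fold change of 1.90 in WT (SE 0.25, adjusted p = 1.57e-05) and 2.16 in AdC3KO (SE 0.25, adjusted p = 4.85e-06).

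Cebpg, a C/EBP partner of ATF4, rose less, with a log2 fold change of 0.83 in WT (SE 0.14, adjusted p = 6.91e-05) and 0.77 in AdC3KO (SE 0.14, adjusted p = 0.000143). Its 6 libraries at 30 °C lay between 69.4 and 74.05 CPM and the 8 cold ones between 96.6 and 155 CPM. Ddit3 encodes CHOP, the factor tied to the late, death-promoting arm of the response, and did not follow the others. Ddit3 had 20.003, 20.9 and 22.8 CPM in WT at 30 °C and 17.4, 20.3 and 25.2 CPM in AdC3KO, against 27.5, 21.2, 14.1 and 13.2 CPM and 18.7, 12.9, 10.5 and 19.5 CPM at 4 °C. The groups overlapped in both genotypes, with estimates of -0.17 in WT (SE 0.26, adjusted p = 0.598) and -0.44 in AdC3KO (SE 0.25, adjusted p = 0.144). Ddit3 shares 10.9% of its exon bases with other annotated entries, among them Mars on the opposite strand. Of its exon bases, 6.1% are shared on the same strand with a second entry of the same symbol, which had 0 counts. Reads over these shared bases may have been left out as ambiguous, so the level of Ddit3 is uncertain to that extent.

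**Figure D4:**
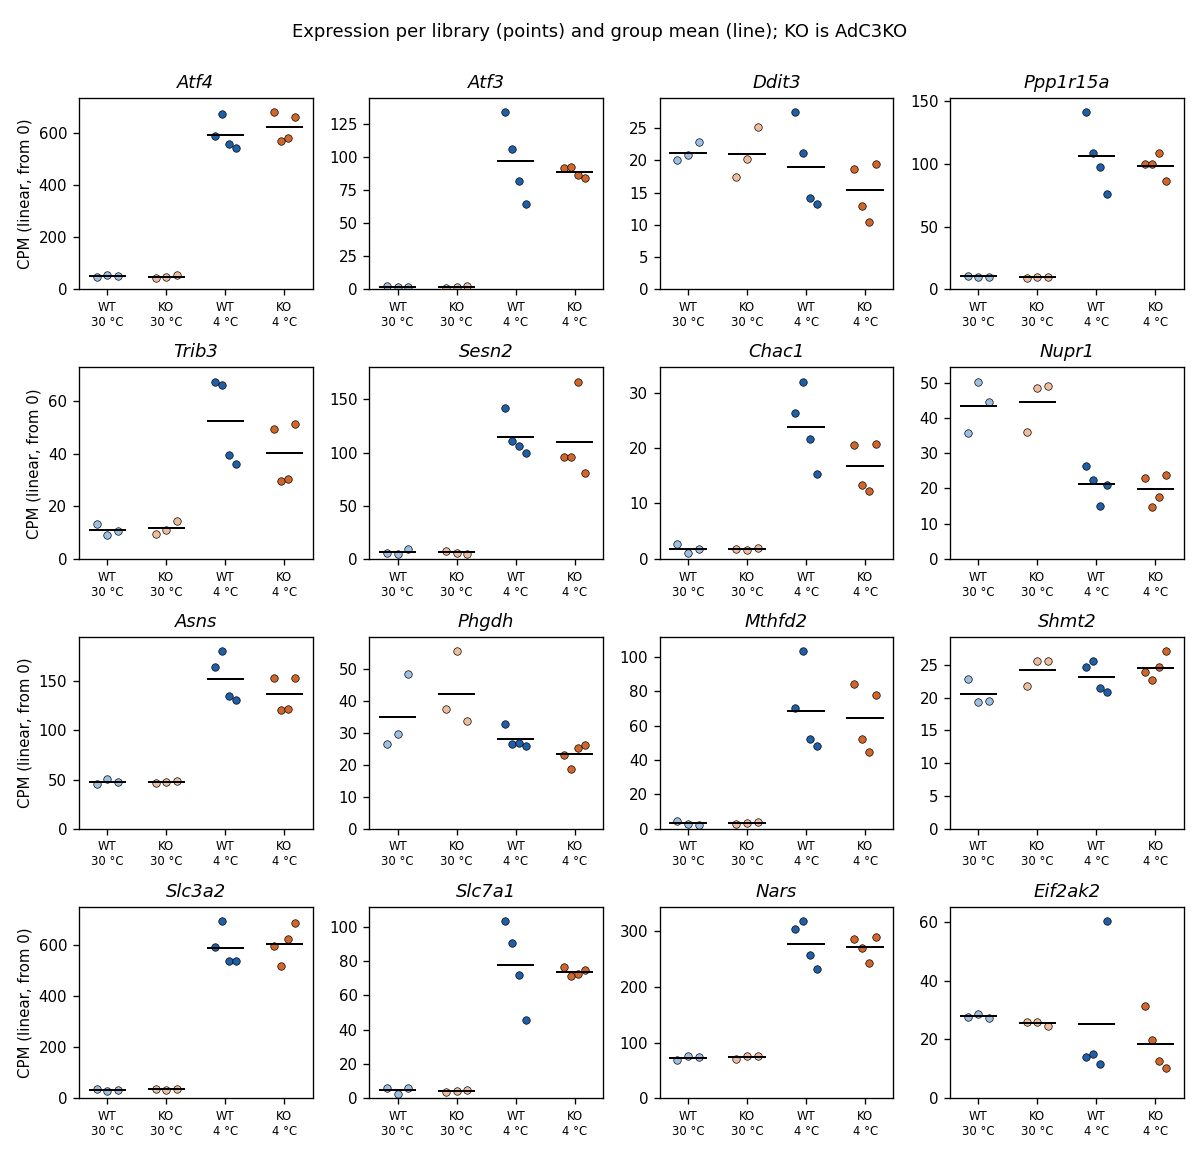
Level in CPM (linear vertical axes from 0) of 16 members in every library (points) with the group mean (line), for WT and AdC3KO (KO) at 30 °C and 4 °C. Atf4, Atf3, Slc3a2 and Mthfd2 show no overlap between temperatures, Ddit3 and Shmt2 overlap, Nupr1 is lower at 4 °C, and Eif2ak2 has 1 WT library at 60.3 CPM.

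All 7 feedback and effector genes were called in both genotypes, 6 higher and 1 lower. Ppp1r15a encodes GADD34, the inducible subunit of the phosphatase that reverses eIF2 alpha phosphorylation. Ppp1r15a had 10.5, 10.1 and 10.1 CPM in WT at 30 °C and 9.29, 10.2 and 9.75 CPM in AdC3KO, against 141, 109, 97.7 and 75.6 CPM and 99.5, 99.7, 108 and 86.3 CPM at 4 °C. At 30 °C its libraries lay within 9.29 to 10.5 CPM, and the mean was 10.4-fold higher in the cold in WT and 10.1-fold in AdC3KO libraries (log2 fold change 3.37, SE 0.17, adjusted p = 3.65e-10 in WT and 3.34, SE 0.17, adjusted p = 3.56e-10 in AdC3KO). Ppp1r15b encodes the constitutive counterpart of GADD34, also called CReP. Ppp1r15b had 94.2, 117 and 133 CPM in WT at 30 °C and 129, 103 and 89.4 CPM in AdC3KO, against 354, 367, 322 and 351 CPM and 382, 292, 266 and 403 CPM at 4 °C. It also rose without overlap, by less and from 20.5 CPM per kilobase of exon in WT at 30 °C against 3.47 for Ppp1r15a (log2 fold change 1.61, SE 0.16, adjusted p = 4.43e-07 in WT and 1.64, SE 0.16, adjusted p = 3.29e-07 in AdC3KO). It shares 11.4% of its exon bases with an opposite-strand transcript, Gm26616, whose 352 counts in all libraries together compare with 78568 for Ppp1r15b.

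Trib3 encodes a pseudokinase that binds ATF4 and restrains it. Trib3 had 13.1, 9.06 and 10.7 CPM in WT at 30 °C and 9.29, 11.01 and 14.6 CPM in AdC3KO, against 67.3, 66.1, 39.5 and 36.1 CPM and 49.4, 29.4, 30.5 and 51.3 CPM at 4 °C. Cold libraries ranged widely, from 29.4 to 67.3 CPM, yet all were above the highest library at 30 °C, 14.6 CPM. The log2 fold change of Trib3 was 2.25 in WT (SE 0.30, adjusted p = 2.34e-05) and 1.79 in AdC3KO (SE 0.29, adjusted p = 0.000142). Chac1 encodes a glutathione-degrading enzyme and is often used as a readout of ATF4 activity. Chac1 had 2.65, 1.12 and 1.79 CPM in WT at 30 °C and 1.73, 1.56 and 2.03 CPM in AdC3KO, against 26.3, 31.97, 21.6 and 15.3 CPM and 20.5, 13.3, 12.3 and 20.7 CPM at 4 °C. Libraries at 30 °C lay within 1.12 to 2.65 CPM, and no cold library was below 12.3 CPM (log2 fold change 3.68, SE 0.33, adjusted p = 2.16e-07 in WT and 3.23, SE 0.32, adjusted p = 6.52e-07 in AdC3KO).

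Sesn2 and Ddit4 both encode inhibitors of the growth kinase mTORC1. Sesn2 had 5.38, 4.67 and 9.15 CPM in WT at 30 °C and 7.43, 5.73 and 5.02 CPM in AdC3KO, against 142, 111, 107 and 99.6 CPM and 95.6, 95.7, 167 and 80.8 CPM at 4 °C. AdC3KO library 3 at 4 °C, the library with the most muscle transcripts, had the highest Sesn2 level. The groups did not overlap (log2 fold change 4.15, SE 0.32, adjusted p = 1.72e-07 in WT and 4.17, SE 0.32, adjusted p = 1.54e-07 in AdC3KO). Ddit4 had 17.3, 11.3 and 22.6 CPM in WT at 30 °C and 11.97, 15.3 and 40.3 CPM in AdC3KO, against 82.3, 81.9, 89.7 and 108 CPM and 89.5, 101, 167 and 55.4 CPM at 4 °C. For Ddit4 AdC3KO library 3 was again the highest in the cold, and AdC3KO library 3 at 30 °C stood at 40.3 CPM, above the other 5 libraries at that temperature. The log2 fold change of Ddit4 was 2.41 in WT (SE 0.48, adjusted p = 0.00119) and 2.20 in AdC3KO (SE 0.48, adjusted p = 0.00189). In AdC3KO the Ddit4 value was 1.02 (adjusted p = 0.0596) without the 5 libraries with muscle transcripts, which leaves 1 AdC3KO library at 30 °C, and 2.92 without that library, AdC3KO library 3 at 30 °C (adjusted p = 0.000205).

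Nupr1, a small stress-induced chromatin protein and an ATF4 target in other settings, was the effector that fell. Nupr1 had 35.7, 50.3 and 44.5 CPM in WT at 30 °C and 36.2, 48.6 and 49.2 CPM in AdC3KO, against 26.3, 22.4, 15.1 and 20.9 CPM and 22.9, 14.8, 17.6 and 23.9 CPM at 4 °C. Every cold library was below every library at 30 °C of its genotype. The log2 fold change of Nupr1 was -1.04 in WT (SE 0.20, adjusted p = 0.000312) and -1.17 in AdC3KO (SE 0.20, adjusted p = 9.98e-05), and the mean was lower by 2.05-fold in WT and 2.26-fold in AdC3KO.

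The 6 genes of amino acid synthesis divided by gene. Asns, asparagine synthetase, is a classical ATF4 target. Asns had 45.6, 50.4 and 47.7 CPM in WT at 30 °C and 46.8, 47.5 and 48.2 CPM in AdC3KO, against 164, 181, 135 and 131 CPM and 154, 120.8, 122 and 154 CPM at 4 °C. The 6 libraries at 30 °C lay within 45.6 to 50.4 CPM, and no cold library was below 120.8 CPM (log2 fold change 1.67, SE 0.12, adjusted p = 1.16e-08 in WT and 1.53, SE 0.12, adjusted p = 2.56e-08 in AdC3KO). The serine pathway has 3 steps, encoded in order by Phgdh, Psat1 and Psph, of which Psat1 alone was called higher. Psat1 had 5.26, 6.98 and 5.52 CPM in WT at 30 °C and 5.59, 6.81 and 3.62 CPM in AdC3KO, against 33.5, 38.9, 23.7 and 22.3 CPM and 31.5, 24.2, 19.3 and 29.1 CPM at 4 °C. Cold libraries were all at least 19.3 CPM, and none at 30 °C was above 6.98 CPM (log2 fold change 2.32, SE 0.25, adjusted p = 1.78e-06 in WT and 2.29, SE 0.25, adjusted p = 1.92e-06 in AdC3KO). Psat1 in AdC3KO was 2.96 without the 5 libraries with muscle transcripts, which leaves at 30 °C only AdC3KO library 3, the one with the lowest Psat1 level.

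Phgdh had 26.4, 29.8 and 48.3 CPM in WT at 30 °C and 32.8, 26.5, 26.7 and 25.9 CPM at 4 °C, which overlap. In AdC3KO it had 37.6, 55.5 and 33.8 CPM at 30 °C and 23.0, 18.8, 25.2 and 26.0 CPM at 4 °C, which do not. It was not called in WT (-0.32, SE 0.21, adjusted p = 0.198) and was called lower in AdC3KO (-0.86, SE 0.21, adjusted p = 0.00203), and the difference between these, -0.54 with an SE of 0.29, was not called. Phgdh resembles 13 processed pseudogenes at 95% identity or more, none with more than 42 counts, so its counts are uncertain to that extent.

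Psph was called lower in both genotypes, with a log2 fold change of -0.65 in WT (SE 0.16, adjusted p = 0.00241) and -0.65 in AdC3KO (SE 0.16, adjusted p = 0.00233), from 11.6 to 18.1 CPM in the 6 libraries at 30 °C to 8.12 to 11.8 CPM in the 8 cold libraries. It shares 10.4% of its exon bases with Cct6a on the opposite strand, which had 45099 counts in all libraries together against 4171 for Psph, so the level and fall of Psph are uncertain if strand was not used in the counting. In proline synthesis, Aldh18a1 (the enzyme of the initial step) and Pycr1 (that of the last) also differed. Aldh18a1 had 3.60, 3.43 and 3.17 CPM in WT at 30 °C and 3.70, 3.16 and 2.88 CPM in AdC3KO, against 14.1, 15.6, 9.97 and 9.09 CPM and 13.01, 12.7, 9.82 and 15.4 CPM at 4 °C. Aldh18a1 rose in every cold library (log2 fold change 1.84, SE 0.21, adjusted p = 1.19e-06 in WT and 1.97, SE 0.21, adjusted p = 4.99e-07 in AdC3KO). Pycr1 was low, from 0.215 to 1.05 CPM over all libraries, and was not called, with estimates of -0.39 (SE 0.44) in WT and -0.90 (SE 0.44, adjusted p = 0.0857) in AdC3KO.

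One-carbon metabolism in mitochondria uses serine through Shmt2, Mthfd2 and Mthfd1l. Shmt2 takes serine into the pathway and was not called, with 19.3 to 25.6 CPM at 30 °C and 20.8 to 27.1 CPM at 4 °C. Mthfd2 had 4.35, 2.67 and 2.22 CPM in WT at 30 °C and 2.45, 3.05 and 3.62 CPM in AdC3KO, against 70.3, 103, 52.04 and 48.1 CPM and 84.6, 52.1, 44.4 and 77.8 CPM at 4 °C. Mthfd2 (minus strand of chromosome 6, 83305691 to 83325908), the next enzyme, rose more than any other enzyme among the members (log2 fold change 4.48, SE 0.38, adjusted p = 6.47e-07 in WT and 4.42, SE 0.38, adjusted p = 6.48e-07 in AdC3KO), a ratio of means of 22.2 in WT and 21.3 in AdC3KO. Mthfd1l had 1.78, 1.52 and 0.598 CPM in WT at 30 °C and 1.31, 1.079 and 1.18 CPM in AdC3KO, against 4.18, 3.04, 3.70 and 5.14 CPM and 4.74, 4.65, 4.64 and 3.25 CPM at 4 °C. Mthfd1l, which releases formate, rose from a low level (log2 fold change 1.64, SE 0.31, adjusted p = 0.000271 in WT and 1.85, SE 0.31, adjusted p = 8.02e-05 in AdC3KO).

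All 5 transporter subunits rose in both genotypes. Slc3a2 (minus strand of chromosome 19, 8706882 to 8723369) encodes the heavy chain CD98, which pairs with several light chains, including those of Slc7a5 and Slc7a11. Slc3a2 had 36.1, 29.3 and 32.9 CPM in WT at 30 °C and 34.9, 33.8 and 36.2 CPM in AdC3KO, against 589.8, 692, 536 and 535 CPM and 593, 517, 621 and 685 CPM at 4 °C. The cold libraries lay between 517 and 692 CPM and those at 30 °C between 29.3 and 36.2 CPM. The log2 fold change of Slc3a2 was 4.17 in WT (SE 0.14, adjusted p = 3.45e-12) and 4.11 in AdC3KO (SE 0.14, adjusted p = 4e-12), the lowest p of the module in both.

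The light chains rose as well, from 0.279 (Slc7a5) and 0.00958 (Slc7a11) CPM per kilobase of exon in WT at 30 °C, against 9.28 for Slc3a2. Slc7a5 had 0.704, 1.52 and 0.880 CPM in WT at 30 °C and 1.57, 1.34 and 0.997 CPM in AdC3KO, against 13.4, 11.4, 8.97 and 7.14 CPM and 11.5, 9.56, 9.92 and 9.95 CPM at 4 °C. Slc7a5, the large neutral amino acid carrier LAT1, was at least 7.14 CPM in the cold and at most 1.57 CPM at 30 °C (log2 fold change 3.30, SE 0.28, adjusted p = 4.99e-08 in WT and 2.97, SE 0.27, adjusted p = 1.04e-07 in AdC3KO). Slc7a11 had 0.290, 0.0399 and 0.0704 CPM in WT at 30 °C and 0.196, 0.0744 and 0.295 CPM in AdC3KO, against 5.60, 2.88, 1.76 and 2.69 CPM and 3.02, 3.70, 1.91 and 3.29 CPM at 4 °C. Slc7a11, the cystine carrier xCT, had only 1 to 8 counts per library at 30 °C and 37 to 95 at 4 °C. At the filter's minimum count of 10 it passed only through its cold libraries, so its call is not independent of that filter. The log2 fold change of Slc7a11 was 4.57 in WT (SE 0.59, adjusted p = 4.99e-06) and 3.94 in AdC3KO (SE 0.55, adjusted p = 1.13e-05), and the WT value was 5.72 without WT library 1 at 30 °C (adjusted p = 7.02e-06). Slc7a11 also contains a stretch of 373 bases that is more than 95% identical to alpha tubulin genes, so its low counts are uncertain.

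Slc7a1 and Slc38a2 carry cationic and small neutral amino acids. Slc7a1 had 6.05, 2.59 and 5.98 CPM in WT at 30 °C and 3.63, 4.24 and 4.65 CPM in AdC3KO, against 103, 90.6, 72.1 and 45.6 CPM and 76.8, 71.2, 72.4 and 74.6 CPM at 4 °C. The lowest cold library of Slc7a1, WT library 4 at 45.6 CPM, was still above the highest at 30 °C, 6.05 CPM (log2 fold change 3.99, SE 0.32, adjusted p = 2.3e-07 in WT and 4.14, SE 0.32, adjusted p = 1.65e-07 in AdC3KO). Slc38a2 had 66.2, 65.97 and 54.6 CPM in WT at 30 °C and 58.7, 52.2 and 61.6 CPM in AdC3KO, against 260.4, 340.2, 274 and 248 CPM and 316, 280.0, 234 and 349 CPM at 4 °C. Slc38a2, which encodes SNAT2, rose by less (log2 fold change 2.17, SE 0.15, adjusted p = 3.69e-09 in WT and 2.36, SE 0.15, adjusted p = 1.64e-09 in AdC3KO).

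The 7 tRNA synthetases, which load amino acids onto tRNAs, formed the most uniform group. Their log2 fold changes lay between 1.49 and 1.93 in WT and between 1.57 and 1.88 in AdC3KO, and in every gene all cold libraries were above all libraries at 30 °C. Nars had 68.2, 75.6 and 74.4 CPM in WT at 30 °C and 69.9, 76.2 and 75.1 CPM in AdC3KO, against 303, 318, 256 and 232 CPM and 287, 269, 243 and 289 CPM at 4 °C. Nars, for asparagine, had the largest rise of the 7 in both genotypes (log2 fold change 1.93, SE 0.11, adjusted p = 9.08e-10 in WT and 1.88, SE 0.11, adjusted p = 1.11e-09 in AdC3KO). Aars had 64.8, 72.996 and 63.7 CPM in WT at 30 °C and 66.8, 61.7 and 68.5 CPM in AdC3KO, against 233, 256, 222 and 202 CPM and 252, 222, 224 and 248 CPM at 4 °C. Aars, for alanine, followed (log2 fold change 1.76, SE 0.10, adjusted p = 5.5e-10 in WT and 1.85, SE 0.10, adjusted p = 3.06e-10 in AdC3KO). Of its exon bases 15.1% are shared, mostly with Exosc6 on the same strand. Exosc6 had 0 counts, and reads over the shared bases may have been left out as ambiguous, so the level of Aars is uncertain to that extent. Wars had 42.6, 39.9 and 40.9 CPM in WT at 30 °C and 39.7, 39.9 and 41.2 CPM in AdC3KO, against 113, 145, 141 and 130.1 CPM and 136, 131, 110.5 and 154 CPM at 4 °C. Wars, for tryptophan, had an SD of at most 13.6% of the mean in any group (log2 fold change 1.69, SE 0.11, adjusted p = 2.96e-09 in WT and 1.73, SE 0.11, adjusted p = 2.22e-09 in AdC3KO).

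Cars had 17.02, 18.6 and 16.9 CPM in WT at 30 °C and 14.6, 17.03 and 15.9 CPM in AdC3KO, against 51.7, 67.3, 47.4 and 50.9 CPM and 57.2, 46.9, 50.05 and 62.1 CPM at 4 °C. Cars, for cysteine, had no cold library below 46.9 CPM and none at 30 °C above 18.6 CPM (log2 fold change 1.63, SE 0.13, adjusted p = 2.31e-08 in WT and 1.77, SE 0.13, adjusted p = 9.46e-09 in AdC3KO). Gars had 88.1, 91.99 and 94.9 CPM in WT at 30 °C and 82.9, 89.7 and 91.3 CPM in AdC3KO, against 303, 291, 271 and 257 CPM and 276, 271, 285 and 289 CPM at 4 °C. Gars, for glycine, had SDs at 4 °C of 20.7 (WT) and 8.38 CPM (AdC3KO) around means of 280.5 and 280.3 CPM (log2 fold change 1.61, SE 0.08, adjusted p = 2.44e-10 in WT and 1.67, SE 0.08, adjusted p = 1.59e-10 in AdC3KO). Tars had 31.02, 33.5 and 37.4 CPM in WT at 30 °C and 34.8, 38.9 and 34.2 CPM in AdC3KO, against 117, 116, 91.4 and 85.5 CPM and 116, 104, 92.6 and 117 CPM at 4 °C. Tars, for threonine, had a ratio of means of 3.02 in WT and 2.98 in AdC3KO libraries (log2 fold change 1.59, SE 0.13, adjusted p = 2.31e-08 in WT and 1.57, SE 0.13, adjusted p = 2.32e-08 in AdC3KO). Sars had 85.2, 93.5 and 80.4 CPM in WT at 30 °C and 81.5, 80.8 and 86.3 CPM in AdC3KO, against 212, 268, 245 and 247 CPM and 275, 232, 252 and 267 CPM at 4 °C. Sars, for serine, had the smallest rise of the 7 in WT libraries (log2 fold change 1.49, SE 0.10, adjusted p = 2.54e-09 in WT and 1.63, SE 0.10, adjusted p = 1.09e-09 in AdC3KO).

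On a scale that adjusts for length, CPM per kilobase of exon, Atf5 was the highest member in WT at 30 °C with 55.9 ± 18.4, followed by Gars with 29.4 ± 1.09 and Atf4 with 21.8 ± 1.15 (SD, n = 3). The length takes in the exons of all annotated transcripts of a gene, used or not. All values per kilobase given here, and their order, are therefore approximate. In WT at 4 °C the order was Atf4 with 250.4 ± 25.0, Atf5 with 208 ± 22.2, Slc3a2 with 167 ± 20.9 and Gars with 89.9 ± 6.64 (SD, n = 4). The mean ± SD ranges of Atf4 and Atf5 overlapped there, as did those of Atf5 and Slc3a2, while Gars lay below all 3. AdC3KO at 4 °C had the same 4 members in the same order, with Atf4 at 264 ± 23.8 and Atf5 at 193 ± 44.2.

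Spread between libraries is given by role as a description. At 4 °C the median coefficient of variation was 10.6% in WT and 7.72% in AdC3KO for the tRNA synthetases, and 22.0% and 26.9% for the feedback and effector genes. Over the 28 members called higher in both genotypes, WT library 2 was the highest of the 8 cold libraries for 9 and WT library 1 for 8, and WT library 4 was the lowest for 10. WT library 4 is the library highest in interferon response genes, and whether that bears on its lower levels was not tested.

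The second comparison asked whether loss of CLSTN3B in adipocytes altered the module at a fixed temperature. No member was called at 30 °C by edgeR, where 0.0439% of tested genes (7) were called, and none at 4 °C, where 0.0502% (8) were called. At an unadjusted p under 0.05 the count was 0 of 37 members at both temperatures, against 212 of 15949 tested genes at 30 °C and 765 at 4 °C. DESeq2 called 0 members at both, and 8 and 21 of all genes. Estimates for AdC3KO over WT lay between -0.37 and 0.52 at 30 °C and between -0.53 and 0.21 at 4 °C on the log2 scale, with medians of -0.02 and -0.03, against 0.01 and -0.01 over all tested genes.

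The libraries set bounds on these differences. The 95% interval of the difference lay inside a 2-fold change in either direction for 34 of 37 members at 30 °C and 33 at 4 °C, and inside 1.5-fold for 21 and 24. For Atf4 the difference was -0.08 (95% interval -0.33 to 0.17) at 30 °C and 0.08 (-0.13 to 0.29) at 4 °C. For Slc3a2 it was 0.04 (-0.18 to 0.26) at 4 °C, and for Gars 0.00 (-0.15 to 0.15). The members whose intervals reached beyond 2-fold were Eif2ak2, Ddit4 and Slc7a11 at 30 °C and Eif2ak2, Ddit4, Chac1 and Pycr1 at 4 °C. The Eif2ak2 interval at 30 °C rests on a spread estimated over all 4 groups. That spread takes in WT library 4 at 4 °C, with 60.3 CPM. At 30 °C Eif2ak2 had 27.3 to 28.8 CPM in WT and 24.5 to 26.1 CPM in AdC3KO. Eif2ak1 and Eif2ak2 did not overlap between genotypes at 30 °C, and neither was called. The share of all tested genes without overlap there is not given.

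The lowest unadjusted p at 4 °C belonged to Chac1, whose estimate was -0.51 (SE 0.25, edgeR adjusted p = 0.963). Its 4 WT libraries had 15.3 to 32.0 CPM and its 4 AdC3KO libraries 12.3 to 20.7 CPM, so the groups overlapped. Trib3 had an estimate of -0.38 (SE 0.25) and overlapped in the same way. At 30 °C the lowest unadjusted p was that of Shmt2, with 0.24 (SE 0.12, edgeR adjusted p = 1). None of these differences passed the test.

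**Figure D5:**
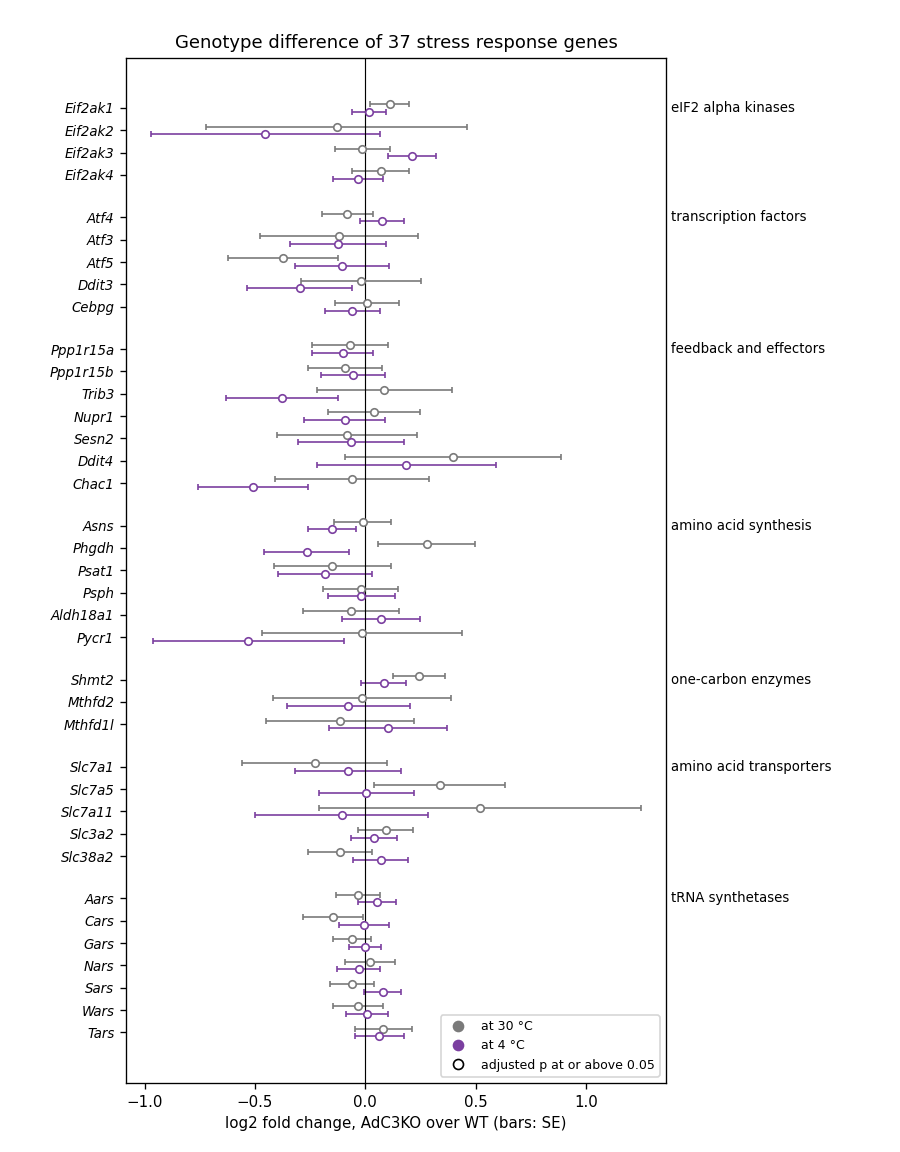
Log2 fold change of AdC3KO over WT (horizontal axis) for the 37 members by role at 30 °C and at 4 °C, with SE bars. Every symbol is open, since no adjusted p was under 0.05, and the estimates span -0.53 (Pycr1 at 4 °C) to 0.52 (Slc7a11 at 30 °C).

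The third comparison, the genotype by temperature interaction, asked whether the cold response itself differed between genotypes. edgeR called 0% of tested genes and no member, 349 of all tested genes and 0 members had an unadjusted p under 0.05, and DESeq2 called 0. Interaction estimates of the members lay between -0.63 (Slc7a11, SE 0.83) and 0.27 (Atf5, SE 0.33). For Atf4 the estimate was 0.16 (95% interval -0.17 to 0.48) and for Slc3a2 -0.06 (-0.40 to 0.29). The interval lay inside a 2-fold change for 24 of the 37 members, so for the other 13, among them Atf3, Trib3, Chac1 and Mthfd2, a 2-fold difference in response was within the limits of these libraries.

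A list of 36 other genes of the pathway was read beside the members. In WT 23 were called higher and 6 lower, in AdC3KO 21 and 8, and 21 were higher and 6 lower in both. All tested genes were called higher and lower in 30.6% and 30.8% of cases in WT and in 31% and 32.1% in AdC3KO, so the list held more higher calls and fewer lower calls than that background. The list was chosen with earlier results of these data known, so this excess was not tested and is not separate support. The secreted stress hormones led. Fgf21 had 0.207, 0.0798 and 0 CPM in WT at 30 °C and 0.0981, 0 and 0.148 CPM in AdC3KO, against 28.9, 40.8, 21.7 and 19.9 CPM and 31.3, 22.8, 22.2 and 37.6 CPM at 4 °C. Fgf21 had 0 to 5 counts per library at 30 °C and 455 to 893 at 4 °C, and its fitted log2 fold changes of 8.18 in WT (SE 0.56) and 8.34 in AdC3KO (SE 0.56) depend on those few counts. Gdf15 had 0.331, 0.1996 and 0.246 CPM in WT at 30 °C and 0.327, 0.223 and 0.701 CPM in AdC3KO, against 22.7, 30.2, 15.2 and 10.8 CPM and 17.2, 10.5, 10.3 and 17.5 CPM at 4 °C. Gdf15 rose on the log2 scale by 6.23 in WT (SE 0.50, adjusted p = 1.11e-07) and 5.05 in AdC3KO (SE 0.46, adjusted p = 3.76e-07). These values rest on 5 to 19 counts per library at 30 °C, and the difference between the genotypes was not called. Fgf21 and Gdf15 passed the filter on low counts only through their cold libraries. Cth, which makes cysteine from cystathionine, rose by 3.61 (SE 0.38) and 2.96 (SE 0.36).

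Of those that fell, Slc1a5, the glutamine carrier ASCT2, changed the most. Slc1a5 had 884, 920.3 and 833 CPM in WT at 30 °C and 778, 789 and 879 CPM in AdC3KO, against 253, 152, 173 and 139 CPM and 143, 142, 191 and 119 CPM at 4 °C. The cold libraries were all below those at 30 °C, by -2.29 (SE 0.18) in WT and -2.45 (SE 0.18) in AdC3KO on the log2 scale, in contrast to the 5 member transporters. Oma1 and Dele1, which relay mitochondrial stress to HRI, fell as well, by -0.87 and -0.76 in WT and -1.10 and -0.73 in AdC3KO.

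Of the 13 other tRNA synthetases outside the mitochondrial list, 9 were called higher in each genotype, and none in WT and 1 in AdC3KO (Mars, -0.22, adjusted p = 0.0438) lower, against 30.6% higher and 30.8% lower among all tested genes in WT and 31% and 32.1% in AdC3KO. Mars overlaps Ddit3 on the opposite strand. Yars (2.11 in WT and 2.09 in AdC3KO), Eprs (2.06 and 1.92) and Iars (1.93 and 1.95) led on the log2 scale, against at most 1.93 and 1.88 among the member synthetases. Of the 17 mitochondrial synthetases, 5 were called higher and 7 lower in WT and 5 higher and 6 lower in AdC3KO, which is near the shares of all tested genes (30.6% and 30.8% in WT, 31% and 32.1% in AdC3KO). The 5 were Cars2, Ears2, Nars2, Wars2 and Yars2 in both, and those that fell in both included Pars2 (-0.84 in WT and -0.93 in AdC3KO) and Vars2 (-0.77 and -0.80). Cars2 was the exception in size. Cars2 had 19.1, 17.4 and 16.5 CPM in WT at 30 °C and 16.6, 18.4 and 18.4 CPM in AdC3KO, against 449, 625, 609 and 490.2 CPM and 534, 791, 957 and 537 CPM at 4 °C. The cold libraries did not overlap those at 30 °C, with log2 fold changes of 4.94 in WT (SE 0.23, adjusted p = 2.21e-10) and 5.31 in AdC3KO (SE 0.23, adjusted p = 1.27e-10). It shares 5.8% of its exon bases with Naxd on the opposite strand. The counting set 5.53% to 6.03% of a library aside as ambiguous between genes. Its strand setting is not given in the sources used here. For genes that share bases, reads lost in this way and reads counted from the opposite strand therefore cannot be told apart.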

How the data were processed

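Sequenced RNA from 14 BAT libraries was analysed, grouped by the genotype and treatment labels. Per the series' design text, reads were trimmed with Trimmomatic, inspected with FastQC, aligned to GRCm38/mm10 with STAR and counted with HTSeq. The versions, the annotation release and the strand setting are not stated in those texts. The table holds raw counts per Ensembl gene as deposited by the authors. The table's 5 lines that name no gene were left out. Reads outside genes were 5.95% to 8.19% of a library, and reads ambiguous between genes 5.53% to 6.03%. Symbols came from the GENCODE annotation of GRCm38 and named 99.41% of identifiers.

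Counts were fitted with edgeR 4.0.16 in R 4.3.3, with filterByExpr at a minimum count of 10, TMM factors of 0.822 to 1.21 and robust quasi-likelihood estimates over 4 group means of all 14 libraries. F-tests were adjusted by the Benjamini-Hochberg method over 15949 genes, with calls at an adjusted p under 0.05. The SE is the log2 fold change divided by the square root of F, and 95% intervals use the t distribution with the fit's degrees of freedom. CPM values use TMM factors. Libraries of 1 group differed beyond the noise of sampling (chi-square per degree of freedom 16.9 to 83.5 over genes with at least 20 counts). The protocol names no molecular identifiers, so counts are of reads and not of distinct molecules. The edgeR step was tested on simulated data.

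Alternatives were DESeq2 1.42.0, other scalings and filters, the replicate number as a block, fits of the compared groups only, each library left out, and the libraries with muscle or interferon transcripts left out. The members and lists were chosen with earlier results of these data known, so no list was tested. All members are named. Per-library values are given for Atf4 and for members called with at least a 2-fold change in both cold comparisons. Other pathway genes are named by the 3 largest rises and 3 largest falls in WT, so the order in AdC3KO can differ. These were taken among genes called in both genotypes with a mean of at least 5 CPM at either temperature in each genotype. That limit leaves out Stc2. Per-library values of kinases, Ddit3, Phgdh, Fgf21, Gdf15, Slc1a5 and Cars2, and the names of Mars, Nars2, Yars2 and single marker genes, were added after their values were seen. Promoter windows came from RefSeq (GRCm38.p6). A gene that the naming rule selects and a promoter stretch are not reported here.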

Additional observations from a re-analysis of the deposited data

Results flagged for a closer look

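In groups of 4 libraries, the level of a member was marked when 1 library stood far from the other 3, by the share of the group's range in the gap to its neighbour (Dixon's criterion at the 95% level). Chance marks about 1 in 20 such groups, and 74 were examined, of which 3 were marked. Eif2ak2 had 60.3 CPM in WT library 4 at 4 °C, against 11.7 to 15.1 CPM in the other 3, and that library also had the highest summed level of interferon response genes, 1264 CPM. Phgdh had 32.8 CPM in WT library 1 at 4 °C, against 25.9 to 26.7 CPM. Mthfd1l had 3.25 CPM in AdC3KO library 4 at 4 °C, against 4.64 to 4.74 CPM. No cause was tested for these 3.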

How the results depend on the processing

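Of the values of single members recomputed under other settings, 4189 kept their side of the threshold, 7 gained a call and 6 lost one. No value that was called in the main or the other fit reversed its direction. Values called in neither could change sign, such as that of Atf4 for AdC3KO against WT at 30 °C (-0.19 to 0.11). Upper-quartile scaling gave a member median of 1.44 in WT and 1.56 in AdC3KO for the cold comparison, and without the libraries with muscle transcripts the median for AdC3KO against WT at 30 °C was 0.0187, against -0.02 with them. Upper-quartile scaling also called Phgdh lower in WT (-0.56, adjusted p = 0.0266) and Eif2ak4 (-0.33, adjusted p = 0.0234), Ddit3 (-0.68, adjusted p = 0.032) and Pycr1 (-1.14, adjusted p = 0.0341) lower in AdC3KO. With each library left out in turn, called members numbered 30 to 31 in the cold in WT, 32 in AdC3KO and 0 in the other comparisons. The member medians then ranged from 1.67 to 1.77 in WT and 1.71 to 1.85 in AdC3KO in the cold, and from -0.05 to -0.01 at 30 °C and -0.09 to 0.04 at 4 °C between genotypes. Same-numbered libraries did not deviate together (correlations -0.29 to 0.04), so the numbers do not pair them; with the replicate block 30 and 32 members were called in the cold and 0 otherwise, with cold medians of 1.67 and 1.76. Called values moved by over 1.5 times in 4 of 1422 cases, all given beside their results. The filter at 5 CPM left 34 members tested, and a fit of the compared groups only was not run for the interaction. Depth limits Slc7a11, with 1 to 8 counts in a library at 30 °C, and Pycr1, with 5 to 26 in any library.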
